A study of Rattus norvegicus with 12 samples.

Results

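The chromosome ends described here were the outermost 2 Mb of the 20 rat autosomes in the Rnor 6.0 genome build, with the first and the last 2 Mb of each chromosome kept apart. A 100 bp window belonged to the first 2 Mb when its start was at most 2000000, and to the last 2 Mb when its start was at most 2000000 bp before the largest start of that chromosome. This position rule used no measurement. It took 400000 windows at the beginnings and 400020 at the ends of the chromosomes, of 27820300 windows in the whole data set, and 25387310 windows formed the rest of the autosomes.

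A chromosome closes with a telomere, an array of short repeats, and the stretch next to it is called the subtelomere. Subtelomeres are rich in segmental duplications and repeats, and copies that are nearly identical are hard to place with short reads. Several rat autosomes carry their centromere at or near the beginning, so their first bases can adjoin centromeric repeats rather than a gene-bearing arm. DNA methylation is the addition of a methyl group to cytosine, mostly before guanine, and it is dense over silent repeats and sparse over active promoters.

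Methylation was assayed by methylated DNA immunoprecipitation (MeDIP-seq), in which an antibody captures methylated fragments and the reads over a window rise with its methylation. The counts were not corrected for CpG content, copy number or mappability. A difference in level between regions is therefore not by itself a difference in methylation. The 12 libraries came from F3 generation Hsd:Sprague Dawley SD males aged 19 to 21 days, with 3 pools of each lineage, control and vinclozolin, for the epithelial and for the stromal cells of the ventral prostate. The F0 generation dams had received 100 mg/kg/day of the fungicide vinclozolin, or the solvent DMSO alone in the control lineage, by injection on gestation days 8 to 14, and no later generation was dosed. Each pool joined the cells of several rats, and the methods describe both cell types as prepared from the same combined tissues, so the pools, not the rats, are the units of every p-value here. By the methods no vinclozolin pool joined fewer rats than any control pool, and most joined more. The part of this difference in the lineage results was not tested.

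The total count was between 57135700 and 112304623 per pool, and 2 of the 3 stromal vinclozolin pools had 110076147 and 112304623 while the deepest stromal control pool had 73948807. The epithelial pools had 60600121, 87262275 and 71880778 in the control and 82652348, 109250697 and 74605038 in the vinclozolin lineage. The part of these differences in depth in the lineage results of either cell type was not tested. The first 2 Mb took 1.39 to 1.44% and the last 2 Mb 1.22 to 1.26% of the total count of a pool. Some of the windows drew no count in any of the 12 pools, as assembly gaps, unmappable repeats and windows without methylated DNA can. This held for 18.5% of the windows of the first 2 Mb, 13.7% of the last 2 Mb and 10.2% of the rest of the autosomes. The share of such empty windows is therefore given beside the results below.

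Both chromosome ends had a lower MeDIP level than the rest of the autosomes, and the deficit was larger at the last 2 Mb. The level of a region is its mean count per window, and it was expressed within each pool as the log2 ratio to the rest of the autosomes, which needs no scaling between pools. The first 2 Mb lay between -0.099 and -0.037 in the 12 pools, with a mean of -0.070 ± 0.020 (SD, n = 12). The last 2 Mb lay between -0.28 and -0.24, with a mean of -0.26 ± 0.013 (SD, n = 12). Every pool was below 0 at both ends, and the 2 ranges did not overlap. Both levels, and their difference of -0.19 on the log2 scale, had a two-sided p of 0.000488 in an exact sign-flip test over the 12 pools (0.000488 after Benjamini-Hochberg adjustment over these 3 results), the smallest p that this test can give. The pools of the 2 cell types came from the same combined tissues and may not be independent, and with the epithelial and stromal pool of the same lineage and number averaged, the exact p was 0.0312 for each over 6 units. These p-values measure the spread between pools, not between chromosomes. Of 1261 blocks of 2 Mb from the interior, 48.9% lay below and 42.7% above the rest of their chromosome in all 12 pools. The p-values therefore do not set the ends apart from other regions. The size of the deficit of the first 2 Mb depended on the summary, at -0.24 as the median over the 20 chromosomes, -0.12 with the counts of a window clipped at 20 and -0.021 in the outermost 1 Mb. Over windows with at least 1 count in any pool, the first 2 Mb was higher than the rest by 0.070 on the log2 scale and the last 2 Mb remained lower, at -0.20 (each exact p = 0.000488). As the median over the 20 chromosomes of these covered windows, the first 2 Mb was lower, at -0.090 (exact p = 0.000488).

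**Figure D1:**
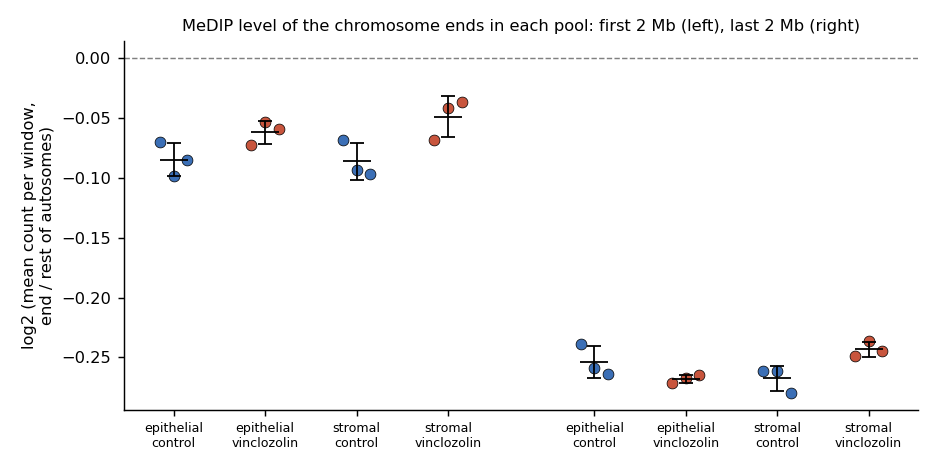
Log2 ratio of the mean count per window in the first 2 Mb (left 4 columns) and the last 2 Mb (right 4 columns) to the rest of the autosomes. Each point is 1 pool (blue control, red vinclozolin lineage), and the bar and whiskers are the mean and SD of the 3 pools of a group. All pools lie below 0, between -0.099 and -0.037 at the first and between -0.28 and -0.24 at the last 2 Mb.

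The level changed with the distance from the tip. At the ends of the chromosomes, the outermost 0.5 Mb had a mean of -0.31 ± 0.026 (SD, n = 12) against the rest of the autosomes, and the next 0.5 Mb had the lowest value, -0.44 ± 0.023. Between 1 and 1.5 Mb the level was -0.20 ± 0.014 and between 1.5 and 2 Mb it was -0.10 ± 0.016. Just outside the limit, between 2 and 2.5 Mb, it was 0.014 ± 0.014, and it went on to 0.45 ± 0.026 between 6.5 and 7 Mb. From 2.5 Mb inward to 10 Mb each step was above the rest of the autosomes in all 12 pools. In the outermost 0.5 Mb of the last ends 18 of the 20 chromosomes lay below the rest of the autosomes in all 12 pools, and 12 did so between 1.5 and 2 Mb.

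The beginnings of the chromosomes followed another course. The outermost 0.5 Mb had a mean level of 0.028 ± 0.027 (SD, n = 12), with pools between -0.017 and 0.068 on both sides of 0. The level was -0.071 ± 0.029 between 0.5 and 1 Mb, -0.13 ± 0.024 between 1 and 1.5 Mb and -0.12 ± 0.011 between 1.5 and 2 Mb, and -0.040 ± 0.0087 just outside the limit. Empty windows made up 24.99% of the outermost 0.5 Mb here and 18.2% at the other end. When these windows were left out, the outermost 0.5 Mb of the beginnings stood at 0.29, the highest of the 20 steps within 10 Mb, and that of the ends at -0.18. Of the 20 chromosomes, 10 were below the rest of the autosomes in all 12 pools over the outermost 0.5 Mb of their beginnings, and 8 were above it.

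**Figure D2:**
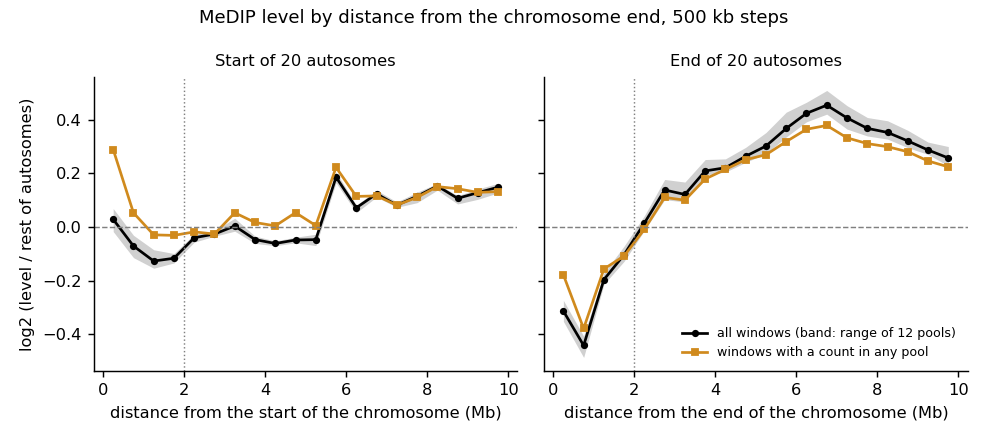
MeDIP level in steps of 500 kb by distance from the start (left) and the end (right) of the 20 autosomes, as log2 ratio to the rest of the autosomes. Black points are means over all windows with the range of the 12 pools as a band, and orange squares leave out windows without a count in any pool. The dotted line marks 2 Mb. The end of the chromosomes is lowest, at -0.44, between 0.5 and 1 Mb and rises to 0.45 between 6.5 and 7 Mb, while the start stays between -0.13 and 0.19.

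The 40 ends differed far more from each other than the pools did. Each end was set against the rest of its own chromosome. The SD between chromosomes was 0.42 for the first and 0.25 for the last 2 Mb, and the mean SD between the 12 pools was 0.037 and 0.035. Among the first 2 Mb, 13 of 20 were below the rest of their chromosome in all 12 pools and 6 were above it. Among the last 2 Mb, 16 of 20 were below and 1 was above. Of 1261 blocks of 2 Mb cut from the interior of the autosomes, 48.9% were below and 42.7% above in all 12 pools, so a constant sign over the pools was common everywhere. The central 80% of the interior blocks lay between -0.47 and 0.37. Of the last ends 6 were below this range and 0 above it, and of the first ends 4 were below and 2 above. Over covered windows alone the first ends turned round, with 2 below and 4 above the central 80% of the interior blocks, while the last ends had 5 below and 0 above. Of the first ends 11 had a share of empty windows above the 90% quantile of the interior blocks, 17.3%.

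The highest of the first ends was that of chromosome 2, where the pools ranged from 0.73 to 0.86 with a median of 0.78, a level 1.71-fold that of the rest of the chromosome. Chromosome 6 followed with 0.40 to 0.44 (median 0.42), and chromosome 12 with 0.28 to 0.39 (median 0.37). Chromosome 12 and chromosome 7, next in order at a mean of 0.32, did not differ by more than their SDs between pools. The lowest was chromosome 13, with pools from -1.18 to -1.02 and a median of -1.12, a level 0.464-fold that of the rest. Chromosome 14 lay between -0.64 and -0.55 and chromosome 20 between -0.59 and -0.43, where chromosome 15, at a mean of -0.48, was within the spread. Empty windows accounted for 30.1% of the first 2 Mb of chromosome 13, 32.3% of chromosome 14 and 23.5% of chromosome 20. Without them chromosome 13 was still the lowest, at -0.76, whereas chromosome 14 stood at -0.21 and chromosome 20 at -0.23.

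The last ends spanned a narrower range. With all windows counted, that of chromosome 5 was the only one above the rest of its chromosome in all pools, from 0.13 to 0.25 with a median of 0.21. Over covered windows alone 2 last ends were above, and the end of chromosome 18, with 23.1% of its windows empty, stood at a mean of 0.20, higher than chromosome 5 at 0.12. Chromosome 12 lay between -0.040 and 0.037, with 7 pools above 0, and chromosome 17 between -0.098 and 0.027. These 2 chromosomes were within the spread of each other. The lowest was chromosome 15, from -0.79 to -0.70 (median -0.74), a level 0.597-fold that of the rest, followed by chromosome 20 from -0.81 to -0.60 and chromosome 2 from -0.74 to -0.61, again within the spread of each other. Chromosome 2 thus had the highest of the first ends and the third lowest of the last ends. In 12 chromosomes the last 2 Mb was below the first in all pools, in 7 it was above in all pools, and in 1 the pools were mixed. The last 2 Mb of chromosome 12 had few empty windows, 4.90%, and the first 2 Mb of chromosome 20, the chromosome of the major histocompatibility complex of the rat, had 23.5%.

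**Figure D3:**
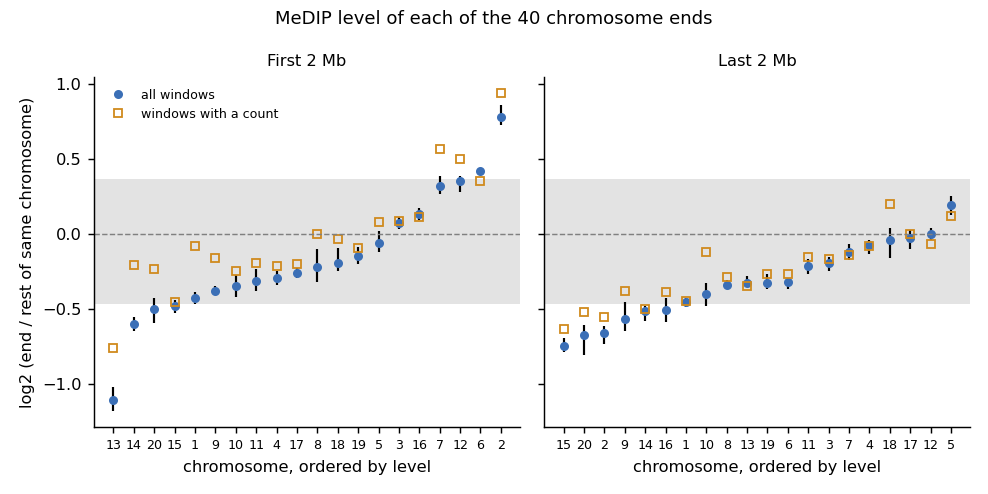
Log2 ratio of the mean count per window of each chromosome end to the rest of the same chromosome, for the first (left) and last (right) 2 Mb, ordered by level. Blue points are means of 12 pools with black lines from the lowest to the highest pool, orange squares leave out windows without a count, and the grey band holds the central 80% of 1261 interior blocks of 2 Mb, from -0.47 to 0.37. The ends span -1.11 to 0.78 on the left and -0.74 to 0.19 on the right.

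Averaged over the lineages, epithelial and stromal cells had nearly the same level at the chromosome ends. Epithelial cells are the glandular, secretory lining of the prostate, and the stroma is its muscle and connective tissue bed. The paper describes the stromal cells isolated here as mainly mesenchymal fibroblasts. The comparison of the 2 cell types asks where their methylation differs. The level of the first 2 Mb was -0.073 ± 0.016 in epithelial and -0.068 ± 0.025 in stromal cells (SD, n = 6 each). That of the last 2 Mb was -0.26 ± 0.012 and -0.26 ± 0.015. The differences, -0.0057 and -0.0056 on the log2 scale, had exact permutation p-values of 0.641 and 0.483 (two-sided, 0.641 each after adjustment). With both lineages together the pools of the cell types overlapped. This test did not use the shared tissue of same-numbered pools. Within the vinclozolin lineage the last 2 Mb did not overlap, at -0.272 to -0.265 in epithelial and -0.249 to -0.237 in stromal pools. In the control lineage the pools overlapped, and the means, -0.254 and -0.267, differed in the other direction.

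The ends were then divided into 800 bins of 100 kb, of which 797 had enough counts to be tested with edgeR's quasi-likelihood test over all 12 pools, with Benjamini-Hochberg adjustment over the 27801 bins tested in the genome. Between the cell types 36 of the 797 bins differed, 11 higher and 25 lower in epithelial cells. In the genome 6.19% of bins were called, 2.97% higher and 3.21% lower, and in the ends 4.52%, so the ends held no more calls than other regions. Blocking on same-numbered epithelial and stromal pools of a lineage gave 54 called bins in the ends, 6.78% beside 8.7% in the genome. Calls were most frequent at the beginning of chromosome 15, with 4 bins lower in epithelial cells, and at the end of chromosome 7, also with 4.

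The bin with the smallest p-value was chr15:1500001-1600000. It had 18.0, 17.6 and 19.4 CPM (counts per 1000000 counts of the pool) in the control and 19.3, 17.3 and 18.4 in the vinclozolin epithelial pools, against 22.3, 22.9 and 21.9 in the control and 21.6, 19.9 and 20.7 in the vinclozolin stromal pools. All 6 epithelial pools were below all 6 stromal pools, with a log2 difference of -0.23 ± 0.039 (SE, adjusted p = 0.000213). On the same end chr15:1700001-1800000 differed by -0.14 ± 0.028 (adjusted p = 0.00163), and at the end of chromosome 7 chr7:144529401-144629400 differed by -0.24 ± 0.041 (adjusted p = 0.000308). In the other direction chr14:114593501-114693500 was at 23.3 to 25.4 CPM in the 6 epithelial and 21.0 to 21.5 in the 6 stromal pools, a difference of 0.19 ± 0.033 (adjusted p = 0.000376). The bins chr16:1800001-1900000 and chr17:1000001-1100000 were also higher in epithelial cells, by 0.19 ± 0.035 (adjusted p = 0.000824) and 0.14 ± 0.030 (adjusted p = 0.00396).

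The comparison of lineages asks whether the exposure of an ancestor left a difference in the DNA methylation of the F3 generation. Over the whole of the ends the differences were small. In epithelial cells the level of the first 2 Mb was -0.070, -0.099 and -0.085 in the control and -0.072, -0.054 and -0.060 in the vinclozolin pools, which overlapped, with a difference of 0.023 on the log2 scale. Their last 2 Mb stood at -0.24, -0.26 and -0.26 in the control and -0.27, -0.27 and -0.27 in the vinclozolin pools, a difference of -0.014. In stromal cells the first 2 Mb was -0.068, -0.094 and -0.097 in the control and -0.068, -0.042 and -0.037 in the vinclozolin pools, a difference of 0.037. The last 2 Mb was -0.26, -0.26 and -0.28 in the control and -0.25, -0.24 and -0.24 in the vinclozolin pools, a difference of 0.024. Except in the epithelial first 2 Mb (exact permutation p = 0.2), the pools of the lineages did not overlap (exact permutation p = 0.1 each), and 3 pools against 3 cannot give a p below 0.1. The separation depended on the summary in 3 of the 4 cases, and the stromal last 2 Mb did not overlap under any of the 6 summaries tried. The epithelial last 2 Mb overlapped with the outermost 1 Mb alone, as the median over chromosomes and against the next 2 Mb inward (exact permutation p = 0.9, 0.5 and 0.6). As the median over covered windows, it and the stromal first 2 Mb also overlapped (exact permutation p = 0.4 and 0.2). The stromal first 2 Mb overlapped with clipped counts, with 1 Mb and against the next 2 Mb (exact permutation p = 0.2 each). The epithelial first 2 Mb, in turn, did not overlap with 1 Mb or as the median (exact permutation p = 0.1 each).

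Taken end by end, the CPM of all 3 vinclozolin pools was above that of all 3 control pools at 8 of the 20 first ends in epithelial cells and below it at 2. Among the interior blocks of 2 Mb these separations occurred in 14% and 13.3%. At the last ends the counts were reversed in epithelial cells, with 1 above and 8 below. In stromal cells 9 first ends were above and 3 below, and 10 last ends were above and 5 below, where 28.7% of the interior blocks were above and 39.9% below. The ends of chromosomes 3, 4, 5, 7 and 12 and the beginning of chromosome 17 were lower in the vinclozolin lineage without overlap in both cell types. Among these, the end of chromosome 5 differed most in epithelial cells, by -0.085 beside -0.086 in stromal cells, and the end of chromosome 12 most in stromal cells, by -0.095 beside -0.058 in epithelial cells. The beginnings of chromosomes 2, 5, 8, 10, 13, 14 and 20 and the end of chromosome 18 were higher without overlap in both. These 8 higher and 6 lower ends are of 40, where 8.25% of the interior blocks were higher and 10.2% lower in both cell types. With each end set against the rest of its own chromosome instead of CPM, 8 ends were higher and 4 lower without overlap in both, where 10.1% of the interior blocks were higher and 6.66% lower on that scale. The ends of chromosomes 4 and 7 and the beginnings of chromosomes 2 and 17 then overlapped in at least 1 cell type, and the beginning of chromosome 11 was separated as higher and that of chromosome 16 as lower. On that scale the end of chromosome 12 differed by -0.047 in stromal cells, less than the end of chromosome 5 at -0.070 and that of chromosome 3 at -0.060, and the end of chromosome 10 turned from lower to higher in epithelial cells, by 0.034.

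In stromal cells 204 of the 797 bins of the ends differed between the lineages by edgeR's quasi-likelihood test, 145 higher and 59 lower in the vinclozolin lineage. This is 25.6% of the bins tested, where 22.2% of the genome was called, 12.3% higher and 9.88% lower. The split was 83 higher and 22 lower in the first and 62 higher and 37 lower in the last 2 Mb, whereas the rest of the autosomes had 2852 higher and 2650 lower. The median difference over all bins tested was 0.031 in the first and 0.028 in the last 2 Mb, and -0.0063 in the rest of the autosomes. The number rested on single pools. It was 61 without vinclozolin replicate 2, 98 without control replicate 3, 113 without vinclozolin replicate 3 and 134 without control replicate 2, although 68.4 to 77.9% of the called bins were higher whichever pool was left out. The genome's share in the same fits is not given, so the fall is not a result about the ends in particular. The bins that were higher had a median of 15.6% empty windows, those that were lower 5.10% and those not called 11.1%, and the part of these windows in the result was not tested.

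**Figure D4:**
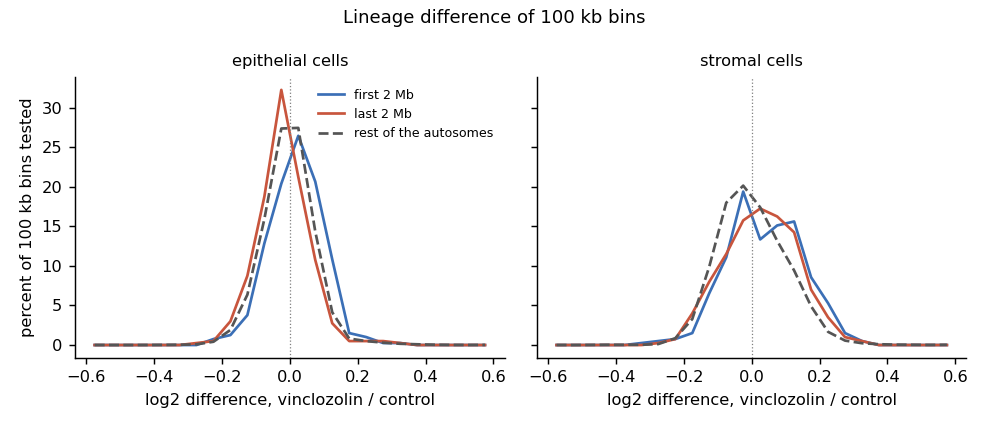
Distribution of the log2 difference of vinclozolin over control lineage of 100 kb bins in epithelial (left) and stromal (right) cells, as percent of the bins tested in steps of 0.05. Lines are the first 2 Mb (397 bins), the last 2 Mb (400 bins) and the rest of the autosomes (25373 bins). In stromal cells both ends lie to the right of the rest, with medians of 0.031 and 0.028 against -0.0063, and in epithelial cells the first 2 Mb lies to the right (0.018) and the last 2 Mb to the left (-0.023).

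The calls were spread over many ends, with higher bins on 33 and lower bins on 25 of the 40. The beginning of chromosome 8 had 11 higher and 0 lower bins, that of chromosome 2 had 10 and 0, and that of chromosome 3 had 9 and 2. On the other side, the end of chromosome 5 had 8 lower and 0 higher bins, and the beginning of chromosome 16 and the end of chromosome 12 had 7 lower bins each, with 1 and 0 higher. Higher bins were in the majority at each distance from the tip except between 1.5 and 2 Mb of the last ends, where 8 were higher and 13 lower.

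On chromosome 8, chr8:1200001-1300000 had 38.8, 39.5 and 37.2 CPM in the control and 43.6, 46.7 and 48.6 in the vinclozolin stromal pools. The lineages did not overlap, with a log2 difference of 0.27 ± 0.040 (SE, adjusted p = 6.57e-05, edgeR). Nearby chr8:700001-800000 rose from a mean of 34.4 ± 0.768 to 40.8 ± 0.973 CPM (SD, n = 3 each), a difference of 0.25 ± 0.040 (adjusted p = 0.000152, edgeR). At the end of chromosome 10, chr10:111226501-111326500 had 27.8, 27.7 and 29.2 CPM in the control and 32.4, 35.9 and 34.6 in the vinclozolin pools, a difference of 0.28 ± 0.043 (adjusted p = 7.1e-05, edgeR). None of these 3 bins was called in epithelial cells, and none passed the test of the difference between the cell types given below.

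The outermost bin of chromosome 11, chr11:90363901-90463900, showed the clearest loss. It had 41.8, 41.2 and 40.1 CPM in the control and 33.2, 32.7 and 34.3 in the vinclozolin stromal pools, a difference of -0.30 ± 0.039 (adjusted p = 9.61e-06, edgeR), and it was also lower in epithelial cells, by -0.15 (adjusted p = 0.0228, edgeR). Of its windows 25.8% were empty. The bin chr5:200001-300000 had 34.7, 34.6 and 34.6 CPM in the control and 29.7, 27.7 and 29.3 in the vinclozolin stromal pools, a difference of -0.26 ± 0.044 (adjusted p = 0.000205, edgeR), with 46.0% of its windows empty. In chr16:1800001-1900000 the stromal pools had 43.6, 44.8 and 44.8 CPM in the control and 37.7, 35.7 and 35.9 in the vinclozolin lineage, a difference of -0.29 ± 0.049 (adjusted p = 0.000295, edgeR).

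In epithelial cells fewer bins differed. Of 797, 31 were called by edgeR, 16 higher and 15 lower in the vinclozolin lineage, or 3.89%, where 3.82% of the genome was called (1.69% higher, 2.13% lower). The first 2 Mb had 12 higher and 4 lower, and the last 2 Mb 4 higher and 11 lower. All 4 higher bins of the last ends were on chromosome 18. The number was 8 without vinclozolin replicate 2, 10 without control replicate 2, 15 without vinclozolin replicate 3, 20 without control replicate 3 and 51 without control replicate 1. When the 6 epithelial pools were fitted alone it was 13, with 10 higher, and it fell further with the replicate block, as given below. The genome's share in these fits is not given, so the falls are not a result about the ends in particular.

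Of the 31 bins 20 were also called in stromal cells, all 20 in the same direction. This is 64.5% of the epithelial and 9.80% of the stromal calls, where 53.9% and 9.28% were shared in the genome. There 571 of 572 shared bins had the same direction. The 2 comparisons share no library, although the pools of both cell types came from the same combined tissues. Among them were chr5:300001-400000, where the epithelial control pools had 30.6, 31.2 and 32.4 CPM and the vinclozolin pools 35.2, 38.1 and 36.7, a difference of 0.23 ± 0.042 (adjusted p = 0.00142, edgeR) beside 0.20 (adjusted p = 0.0018) in stromal cells. At the inner limit of the end of chromosome 10, chr10:110626401-110726500 had 58.0, 55.4 and 56.8 CPM in the control and 50.1, 44.2 and 48.1 in the vinclozolin epithelial pools, a difference of -0.26 ± 0.043 (adjusted p = 0.000348, edgeR). It was lower by -0.14 in stromal cells (adjusted p = 0.0164). At the beginning of chromosome 20, chr20:100001-200000 was lower by -0.24 in epithelial (adjusted p = 0.00702) and -0.25 in stromal cells (adjusted p = 0.0019). The epithelial call was lost without control replicate 2, control replicate 3 or vinclozolin replicate 2. On the same end chr20:1800001-1900000 was lower in epithelial cells, by -0.16 ± 0.040 (adjusted p = 0.0161, edgeR), a call lost without vinclozolin replicate 1 or 3.

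At the end of chromosome 18, 4 adjoining bins were higher in the vinclozolin lineage in epithelial cells. Stromal cells also had 4 higher and 0 lower bins on this end, but these were not the same 4. Only chr18:87802001-87902000 and chr18:87902001-88002000 were called in both cell types. In chr18:87802001-87902000 the pools had 50.2, 46.3 and 48.7 CPM in the control and 60.002, 61.3 and 60.1 in the vinclozolin lineage, a difference of 0.32 ± 0.040 (adjusted p = 3.35e-06, edgeR). The stromal pools had 48.6, 46.8 and 52.1 CPM in the control and 56.4, 58.8 and 56.9 in the vinclozolin lineage, a difference of 0.22 (adjusted p = 0.000505). The lineages did not overlap in either cell type, and 42.7% of the windows were empty. The bin inward of it, chr18:87702001-87802000, had 66.6, 59.4 and 64.2 CPM in the control and 73.8, 74.7 and 79.4 in the vinclozolin epithelial pools, a difference of 0.26 ± 0.048 (adjusted p = 0.000992), and 0.12 (adjusted p = 0.0636) in stromal cells. The pair towards the tip had differences of 0.26 and 0.23 in epithelial cells (adjusted p = 0.00425 and 0.00592, edgeR). The first of the pair, chr18:87902001-88002000, was also higher in stromal cells, by 0.16 (adjusted p = 0.0348, edgeR). The outermost bin had a difference of 0.083 in epithelial cells (adjusted p = 0.295).

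**Figure D5:**
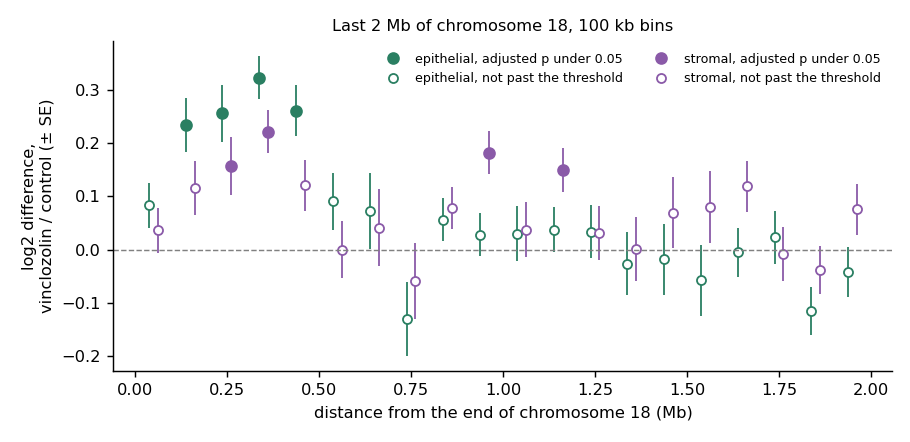
Log2 difference of vinclozolin over control lineage in the 20 bins of 100 kb of the last 2 Mb of chromosome 18, by distance of the bin's middle from the chromosome end. Points are edgeR estimates with their SE in epithelial (green) and stromal (purple) cells, filled where the adjusted p is under 0.05. The 4 filled epithelial points, at 0.23 to 0.32, lie side by side between 0.1 and 0.5 Mb from the end.

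Whether the lineage difference itself differed between the cell types was tested as an interaction. No bin of the ends passed the adjusted threshold in edgeR (0 of 797), and DESeq2 called 1. An unadjusted p under 0.05 was found for 109 bins, or 13.7%, where 11.9% of the genome's bins had one.

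At the scale of 100 bp, differential DNA methylation regions (DMRs) were formed from edgeR's exact test within a cell type. The window size, the joining of neighbours and the limit follow the study's methods, and the exact test and the filter on low counts were chosen here. Neighbouring windows of p under 0.1, with no more than 1000 bp from start to start, formed 1 region, which counted as a DMR if p was under 1e-06 in any of its windows. A read can lie over several adjoining windows, so the windows of a DMR are not independent. The ends held 12 DMRs in epithelial cells, 10 higher and 2 lower in the vinclozolin lineage, among 287958 windows tested, and 6 lay in the first and 6 in the last 2 Mb. Single windows of the ends under 1e-06 numbered 12, and 0.00317% of the genome's windows tested were under it. The DMRs of the ends came to 0.00417 per 100 windows tested, where the genome had 0.00267 (0.00131 higher, 0.00136 lower). These shares hold for the settings just described. Their difference was not tested, and the number in the ends changed with the setting, as given below. In stromal cells the ends held 38 DMRs, 5 higher and 33 lower, 17 in the first and 21 in the last 2 Mb. Single windows of the ends under 1e-06 numbered 54, or 0.0184% (0.0137% in the genome). The DMRs of the ends came to 0.0130 per 100 windows tested, where the genome had 0.00953 (0.00128 higher, 0.00825 lower). These shares, too, hold for the settings just described, and their difference was not tested. The direction in stromal cells was the opposite of that of the 100 kb bins. DMRs were mostly lower, as in the rest of the autosomes (136 higher, 902 lower), while bins were mostly higher. With no filter on the count, however, the stromal DMRs were 11 higher and 11 lower in the ends and 309 higher and 377 lower in the genome. Of the 1383 stromal windows of the ends under 0.001 in the filtered test 48.5% were higher, beside 44.6% in the genome.

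The epithelial number changed with the pool left out, with 1 DMR left without vinclozolin replicate 1 and 4 to 9 without another pool. It was 6 with the quasi-likelihood test. Its direction was not stable either, with 3 higher and 6 lower without control replicate 3, 3 and 3 without control replicate 1, 2 and 2 without vinclozolin replicate 3, and 4 and 3 with the replicate block. The stromal number was 18 without control replicate 3 or vinclozolin replicate 2, 22 without control replicate 1, 23 without control replicate 2, and 22 with no filter on the count. For both cell types the genome's numbers with a pool left out are not set beside these. The changes are therefore not a result about the ends in particular. Around the limit of 1e-06, the epithelial windows just inside had p-values of 9.56e-07 and 9.59e-07 and those just outside 1.94e-06 and 2.17e-06. In the stromal cells they were 9.87e-07 and 9.94e-07 inside and 1.11e-06 and 1.23e-06 outside.

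The epithelial DMRs fell on 8 of the 40 ends, and 4 of the 12 lay within the last 0.5 Mb of chromosome 18, all higher. Stromal DMRs fell on 22 ends, with 5 on the end of chromosome 12 and 4 on the beginning of chromosome 16. The median length was 1600 bp in the first and 1250 bp in the last 2 Mb for epithelial DMRs (rest of the autosomes 1000 bp), and 1300 and 1200 bp for stromal DMRs (rest 900 bp). In epithelial cells 4 of 6 DMRs of the first and 4 of 6 of the last 2 Mb overlapped a DMR listed by the study. In stromal cells 15 of 17 and 20 of 21 did. The study's lists come from the same libraries, window size and limit, so this overlap is not independent support for the DMRs.

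Both cell types shared a pair of DMRs, by an overlap of at least 1 bp, both in the last 2 Mb and both higher in the vinclozolin lineage. These are 16.7% of the epithelial and 5.26% of the stromal DMRs of the ends, where 16.9% and 4.59% were shared in the genome. The shared DMR of chromosome 18 was chr18:87797301-87798300 in epithelial and chr18:87794901-87798300 in stromal cells, 404 kb from the end. Its window with the smallest p had 18, 18 and 16 counts in the control and 56, 69 and 51 in the vinclozolin epithelial pools, a log2 difference of 1.47 (adjusted p = 7.57e-06, edgeR exact test). The stromal pools had 11, 16 and 24 counts in the control and 68, 77 and 51 in the vinclozolin lineage, a difference of 1.39 (adjusted p = 4.3e-06). In CPM the means were 0.242 ± 0.0484 and 0.664 ± 0.0284 in epithelial and 0.255 ± 0.0663 and 0.671 ± 0.0478 in stromal cells (SD, n = 3 each). The lineages did not overlap in either cell type, and the window stayed under 1e-06 without any 1 pool (6 of 6 in each).

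The shared DMR of chromosome 12 lay near the inner limit of its end, 1940 kb from the tip, at chr12:50774501-50777400 in epithelial and chr12:50775001-50779500 in stromal cells. Its leading window had 4, 11 and 1 counts in the control and 22, 29 and 22 in the vinclozolin epithelial pools, a difference of 1.89 (adjusted p = 0.0133, edgeR exact test). The stromal pools had 3, 5 and 5 counts in the control and 33, 50 and 28 in the vinclozolin lineage, a difference of 2.52 (adjusted p = 4.19e-07). In stromal cells it stayed under 1e-06 without any 1 pool (6 of 6), and in epithelial cells in 1 of 6 cases. All the same, the end of chromosome 12 as a whole was lower in the vinclozolin lineage, and the other 4 stromal DMRs on it were lower.

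Of the epithelial DMRs with the smallest p-values, chr18:87819501-87821000 had 2, 2 and 0 counts in the control and 16, 13 and 17 in the vinclozolin pools at its leading window, a difference of 3.15 (adjusted p = 0.00724, edgeR exact test). Next to it chr18:87853601-87854500 had 19, 23 and 25 counts in the control and 52, 75 and 44 in the vinclozolin pools, a difference of 1.07 (adjusted p = 0.0132). Each stayed under 1e-06 in 2 of the 6 cases with a pool left out. The 2 lower epithelial DMRs were chr20:197801-200200, with 6, 17 and 11 counts in the control and 0, 3 and 2 in the vinclozolin pools (a difference of -2.94, adjusted p = 0.0151), and chr5:172669501-172671200, with 33, 33 and 34 in the control and 14, 22 and 15 in the vinclozolin pools (a difference of -1.25, adjusted p = 0.0273). Each stayed under 1e-06 in 1 of the 6 cases with a pool left out, and the lineages did not overlap in CPM. Neither overlapped a DMR of the study's own epithelial list.

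In stromal cells the 3 lower DMRs with the smallest p-values were at the beginnings of chromosomes 17, 19 and 16. At chr17:947401-947800, beside which the study's annotation names Fancc, a subunit of the Fanconi anaemia DNA repair complex, the leading window had 111, 118 and 119 counts in the control and 110, 116 and 61 in the vinclozolin pools. In CPM these were 1.94, 1.83 and 1.61 against 0.999, 1.03 and 0.849, which did not overlap, with a log2 difference of -0.83 (adjusted p = 1.33e-07, edgeR exact test). At chr19:306401-311500 the pools had 2.07, 2.08 and 2.31 CPM in the control and 1.27, 1.18 and 1.31 in the vinclozolin lineage, a difference of -0.76 (adjusted p = 2.15e-07). At chr16:1844401-1846600, with Zmiz1 named beside it, a coactivator of the androgen receptor, they had 2.77, 2.49 and 2.23 CPM in the control and 1.58, 1.398 and 1.53 in the vinclozolin lineage, a difference of -0.68 (adjusted p = 3.69e-06). All 3 stayed under 1e-06 without any 1 pool (6 of 6). In epithelial cells the leading window of the DMR near Fancc differed by -0.62 with an unadjusted exact test p of 0.004. That of the DMR near Zmiz1 differed by -0.33 (unadjusted exact test p = 0.0745), and that on chromosome 19 had no p under 0.1.

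An epithelial DMR higher in the vinclozolin lineage, chr16:1819101-1820200 (a difference of 1.76, adjusted p = 0.0283, edgeR exact test), also had Zmiz1 named beside it, and it was lost whichever pool was left out (0 of 6 kept). Besides the shared DMRs, the third of the higher stromal DMRs was chr13:113095801-113100000, with 1, 1 and 3 counts in the control and 23, 19 and 9 in the vinclozolin pools (a difference of 2.73, adjusted p = 0.00263, edgeR exact test), which stayed under 1e-06 in 1 of the 6 cases. Other genes named beside the lower stromal DMRs were chosen here after their values were seen. They were Insr, the insulin receptor (-1.09, adjusted p = 0.00594), Tbcd, a tubulin folding cofactor (-0.63, adjusted p = 1.37e-05), Oprl1, the nociceptin receptor (-1.41, adjusted p = 0.000627), Gng4, a G protein subunit (-1.44, adjusted p = 0.00114), and Fgd4, an exchange factor for a small GTPase (-0.74, adjusted p = 0.00038). With a pool left out, the DMR of Insr stayed under 1e-06 in 1 of 6 cases, that of Gng4 in 2, Oprl1 in 4, Fgd4 in 5 and Tbcd in 6.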

How the data were processed

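MeDIP DNA of 12 pools was sequenced by the authors. As the methods describe, the authors used Trimmomatic for trimming and Bowtie2 for mapping to Rnor 6.0, and they counted reads in 100 bp windows with MEDIPS. The deposited values used here are the raw counts per window and pool, without normalization; the highest value was 300 in all 12 pools, reached by 4 to 37 windows of a pool and by 0 windows of the ends, so the highest windows elsewhere may be capped. FastQC, SAMtools and edgeR are also in the submitters' processing notes. The 12 deposited columns of per-pool RPKM values were not used, and neither were group means, fold changes and p-values from the authors' edgeR run.

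Counts were summed by position class. Levels were compared over pools by exact sign-flip or permutation tests (scipy 1.17.1). Bins of 100 kb were tested with edgeR's quasi-likelihood test (version 4.0.16, TMM, 4 groups, at least 10 counts per pool on average) and adjusted by Benjamini-Hochberg over all bins. All windows whose counts summed to 10 or more were tested by edgeR's exact test with tagwise dispersion within a cell type; those that differed by less than 1.3 SD of the counting noise entered the dispersion estimate, skipped the exact test and had p set to 1. The tests were tried on simulated data first. Fold changes are vinclozolin over control or epithelial over stromal. CPM are counts per 1000000 of the pool's total count, in bins times the TMM factor.

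The ends and bins named are the 3 highest and 3 lowest ends on each side, the 3 called bins of smallest p per direction and comparison, the DMRs found in both cell types and the 3 DMRs of smallest p per direction and cell type. The members, lists and rules were chosen with earlier results of these data known. Pools with the same number were tested for shared origin by the correlation of their deviations from the group mean. Between lineages it was -0.32 to 0.015 for the same number, so the numbers were not taken to pair the lineages. Between cell types it was 0.024 to 0.19 for the same number and -0.16 to 0.055 for other numbers. Both cell types came from the same combined tissues, so same-numbered pools of a lineage may be pairs and may not be independent. The main tests between cell types did not use this pairing, and the blocked bin counts are given beside them. No genome or gene annotation of this build was used here, so no sequence, CpG content, gene family or cell type marker could be read, and the labelled cell types were not checked. Gene names beside DMRs come from the study's own annotation.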

Additional observations from a re-analysis of the deposited data

How the results depend on the processing

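The levels of the ends against the rest kept their direction under every alternative except the first 2 Mb over covered windows, where the difference was 0.070 in place of -0.070, but their size moved. The first 2 Mb was -0.24 as the median over chromosomes, -0.12 with clipped counts, -0.021 with 1 Mb, -0.043 against the next 2 Mb and -0.090 as the median over covered windows, and the last minus the first 2 Mb was -0.090, -0.15, -0.36, -0.34 and -0.18. The difference between cell types, not called under any alternative, was above 0 in the last 2 Mb against the next 2 Mb (0.0058) and in the first 2 Mb as the median over covered windows (0.0092). Leaving out 1 pool gave -0.073 to -0.068 for the first 2 Mb, -0.26 for the last and -0.19 for their difference, and -0.012 to 0.00045 and -0.010 to -0.0018 between cell types. Lineage differences moved by more than the spread in the epithelial last 2 Mb (-0.0043 with the outermost 1 Mb, -0.0042 against the next 2 Mb inward), the stromal first 2 Mb (0.071 as the median over chromosomes, 0.021 for that median over covered windows) and the stromal last 2 Mb (0.051 with 1 Mb, 0.038 as the median, 0.053 against the next 2 Mb, 0.047 as the median over covered windows). The settings against the next 2 Mb, the median over covered windows and, for single ends, the level against the same chromosome in place of CPM were chosen after seeing the data. Without 1 pool the lineage differences lay between 0.016 and 0.030, -0.019 and -0.0066, 0.031 and 0.047, and 0.018 and 0.027.

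Bins called without 1 pool numbered 8 to 51 (epithelial lineage), 61 to 256 (stromal lineage), 21 to 52 (cell type) and 0 to 1 (interaction). Epithelial pools fitted alone gave 13 bins, DESeq2 gave 1 bin of interaction, and bins of 50 kb, more numerous than those of 100 kb, gave 61 for cell type. These counts are of the ends alone, without the genome's share in the same fit. Of 18 named bins, 18 kept their call with either other scaling, no filter or DESeq2. DMRs without 1 pool numbered 1 to 9 and 18 to 42, and windows under 1e-06 1 to 11 and 22 to 68. The quasi-likelihood test gave 6 epithelial DMRs and 33 stromal windows, and no filter gave 22 stromal DMRs and 28 windows. The causes were not tested.

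With the lineages blocked by pool number, a pairing that the data did not bear out, epithelial lineage calls fell to 5 bins and 7 DMRs. Stromal lineage calls were then 223 bins and 30 DMRs. The genome's share under this block is not given, so these counts are not a result about the ends in particular. Blocking on same-numbered epithelial and stromal pools of a lineage gave 54 bins for cell type and 0 for interaction. Under these blocks 2 of the 18 named bins lost their call. In the control lineage same-numbered epithelial and stromal pools correlated at 0.078 to 0.18.

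Depth was 57135700 counts or more per pool, a mean of 2.02 counts per window of the first 2 Mb in the shallowest pool, stromal control replicate 1, so a window of the ends with few counts can show only large differences. Pools of several rats give no spread between animals.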

Other observations

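Very high windows were somewhat more frequent at the beginnings of the chromosomes. Of the windows of the first 2 Mb, 1.24% were among the 1% of windows with the highest count summed over the 12 pools, against 0.880% of the last 2 Mb and 0.991% of the rest of the autosomes. Among covered windows the median summed count was 16 in the first 2 Mb, 13 in the last 2 Mb and 18 in the rest. Relative to counting error, the variance among the pools of a group was 1.01 to 1.38 times as large in the first 2 Mb and 1.04 to 1.43 times in the last 2 Mb, and it was 1.02 to 1.43 times in the rest of the autosomes. The largest of these values belonged to the epithelial control pools in all 3 classes.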
